A study of Mus musculus with 6 samples.

Results

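The cytochrome P450 genes of families 1 to 4 encode heme enzymes of the endoplasmic reticulum that oxidise drugs, dietary and environmental chemicals, steroids and fatty acids. They were taken from a table of transcript levels of mouse intestine as every row whose symbol was Cyp, a family number from 1 to 4, a subfamily letter and a gene number. This gave 75 of 25416 rows. Of these, 32 reached 0.5 FPKM (sequenced fragments divided by transcript length and library size) in at least 1 library, while 43 stayed below 0.5 in all libraries and were only counted, 17 of them listed at 0 throughout. The limit separated Cyp2c67, with a highest value of 0.570 FPKM, from Cyp4f17, with a highest value of 0.485 FPKM.

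Polyadenylated RNA had been captured on oligo(dT) beads and sequenced in 3 libraries with the genotype label HET, for which the series names the Rnf111 substitution S254D, and in 3 libraries labelled WT. Rnf111 encodes a ubiquitin ligase of TGF-beta signalling, and the comparison asks which transcripts differed between the genotypes. The labels give no strain, age, sex, segment of the intestine or batch, nor whether each library stands for 1 animal. The p-values therefore rest on the spread among these libraries, part of which may be technical. Rnf111 itself was at 4.43, 4.83 and 4.25 FPKM in HET and at 4.97, 5.29 and 5.34 FPKM in WT. A substitution in the protein cannot be checked from this level.

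P450 enzymes of families 1 to 3 are best known from the liver, but enterocytes of the small intestine also hold them as a first barrier to what is eaten. Many are switched on by ligand-sensing factors: the aryl hydrocarbon receptor (AhR) acts on family 1, and the nuclear receptors CAR and PXR act on the Cyp2b, Cyp2c and Cyp3a genes. Family 4 enzymes and several of family 2 act on fatty acids and eicosanoids, among them arachidonic acid and leukotriene B4. All draw their electrons from 1 shared partner, P450 oxidoreductase.

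Promoters are shown for a pair of neighbouring genes with near-identical coding sequences that differed in their call (Cyp2c65 and Cyp2c66), for the tested member with the largest fold change (Cyp2c29), and for neighbours that moved in opposite directions (Cyp3a11 and Cyp3a25). Each is the 250 bases before the annotated start in RefSeq's GRCm38.p6 annotation, 5′ to 3′ on the gene's strand. Capitals mark the nuclear receptor half-sites AGGTCA and AGTTCA and the glucocorticoid receptor half-site AGAACA, searched on both strands. The windows are chr19:39060756-39061005 on the plus strand for Cyp2c65, chr19:39113648-39113897 on the plus strand for Cyp2c66, chr19:39286835-39287084 on the plus strand for Cyp2c29, chr5:145879855-145880104 on the minus strand for Cyp3a11 and chr5:146009618-146009867 on the minus strand for Cyp3a25, the first of its RefSeq entries.
Cyp2c65: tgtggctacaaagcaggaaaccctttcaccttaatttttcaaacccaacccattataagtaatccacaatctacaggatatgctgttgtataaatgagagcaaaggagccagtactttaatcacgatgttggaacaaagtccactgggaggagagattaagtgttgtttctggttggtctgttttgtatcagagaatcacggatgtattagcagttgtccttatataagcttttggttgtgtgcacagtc
Cyp2c66: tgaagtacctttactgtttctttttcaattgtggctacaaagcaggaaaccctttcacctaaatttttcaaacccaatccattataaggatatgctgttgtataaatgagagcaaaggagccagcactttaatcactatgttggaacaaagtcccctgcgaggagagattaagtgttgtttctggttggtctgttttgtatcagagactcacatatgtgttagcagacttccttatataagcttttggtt
Cyp2c29: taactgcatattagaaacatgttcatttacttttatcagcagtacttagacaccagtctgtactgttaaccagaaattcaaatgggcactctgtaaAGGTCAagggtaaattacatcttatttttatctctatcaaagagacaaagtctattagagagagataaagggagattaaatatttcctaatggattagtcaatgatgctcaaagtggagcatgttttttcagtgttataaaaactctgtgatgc
Cyp3a11: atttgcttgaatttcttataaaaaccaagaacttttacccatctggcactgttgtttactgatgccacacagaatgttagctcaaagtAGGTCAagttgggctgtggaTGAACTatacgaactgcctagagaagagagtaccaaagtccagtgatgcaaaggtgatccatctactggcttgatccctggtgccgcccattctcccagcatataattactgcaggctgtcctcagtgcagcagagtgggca
Cyp3a25: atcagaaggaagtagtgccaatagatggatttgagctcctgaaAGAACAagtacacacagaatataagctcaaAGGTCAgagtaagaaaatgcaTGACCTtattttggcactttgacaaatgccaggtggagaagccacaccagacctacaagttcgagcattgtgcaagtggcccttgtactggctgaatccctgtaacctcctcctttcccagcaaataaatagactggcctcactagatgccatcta
When aligned, the Cyp2c65 and Cyp2c66 promoters matched at 208 of 250 bases (83.2%), and neither held a marked motif. The Cyp3a11 and Cyp3a25 promoters matched at 57.2% of bases. Cyp3a11 held 1 AGGTCA and 1 AGTTCA, the latter read as TGAACT, and Cyp3a25 held 2 AGGTCA, 1 of them read as TGACCT, and 1 AGAACA. Over all 32851 RefSeq promoters of the same length, AGGTCA was present in 14.0%, AGTTCA in 11.8% and AGAACA in 16.1%. A promoter entry was found for 28 of the 32 members at 0.5 FPKM or more. Of these 28, AGGTCA was present in 4, AGTTCA in 4 and AGAACA in 5, while the AhR core GCGTG was present in 8 (28.2% of all promoters) and the NRF2 element TGACNNNGC, which can overlap TGACCT, in 1 (10.2% of all promoters). These matches are letters in a window and do not show that a factor binds there.

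The FPKM of a library summed to 469968 to 510568 in HET and to 493950 to 520095 in WT. The depth, estimated roughly from the lowest values, ran from 19500000 to 21900000 fragments over the HET libraries and from 20600000 to 25800000 over the WT libraries. An FPKM of 1 over a 2 kb transcript then stands for about 39.1 to 51.5 fragments, and levels below 1 FPKM rest on fewer. Among 11870 tested genes limma called 1269 higher and 4235 lower in HET (adjusted p under 0.05, Benjamini-Hochberg), while 6465 had an unadjusted p under 0.05. Marker genes of several cell types differed between the genotypes. Summed FPKM of 12 enterocyte markers was 12217, 13965 and 14707 in HET and 10754, 11249.9 and 10264 in WT. Of the 12 genes, 2 were higher, 0 were lower and 10 did not pass. Fabp2 held the largest part of the sum. All 6 fibroblast, 5 smooth muscle, 4 endothelial and 4 Paneth cell markers were lower in HET, as were 3 of 4 tested leukocyte markers and 3 of 4 goblet cell markers. In bulk tissue, fewer cells of a type and less RNA per cell cannot be told apart. The 8 hepatocyte markers stayed at or below 1.28 FPKM in every library, and the colon marker Car1 was listed at 0 in all of them. The 5 pancreatic acinar markers were low but separate, summing to 3.43, 0.0962 and 1.72 FPKM in HET and to 0, 0.0672 and 0.0436 FPKM in WT. Whether carry-over of other tissue differed between the genotypes was not tested.

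In the HET libraries 2 intestinal drug-metabolising P450 genes rose, Cyp3a11 (1.95-fold) and Cyp2b10 (1.55-fold), while Cyp1a1 (1.90-fold), Cyp2c55 (3.72-fold), Cyp2c29 (10.7-fold), Cyp2c66 (2.12-fold) and both expressed Cyp2j genes fell. Of 28 members that reached 1 FPKM in at least 3 libraries and were tested, 3 were higher (10.7%), 12 were lower (42.9%) and 13 did not pass. Over all tested genes 10.7% were higher and 35.7% were lower, so neither share sets the P450 genes apart from the rest of the transcriptome. Their median log2 fold change was -0.22, beside -0.12 over all tested genes, with 16 members below 0 and 12 above 0. All 15 called members, and no other tested member, had HET and WT values that did not overlap (53.6% of the 28, beside 59.8% of all tested genes, of which 16.0% lay higher and 43.8% lower in HET). Cyp2c29 and Cyp2j9 passed the filter only through the WT libraries, since no HET library reached 1 FPKM for either. Log2 fold changes are differences of log2(FPKM + 1), which understate the change of weakly expressed genes, and folds are ratios of mean FPKM with n = 3 libraries per genotype.

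**Figure D1:**
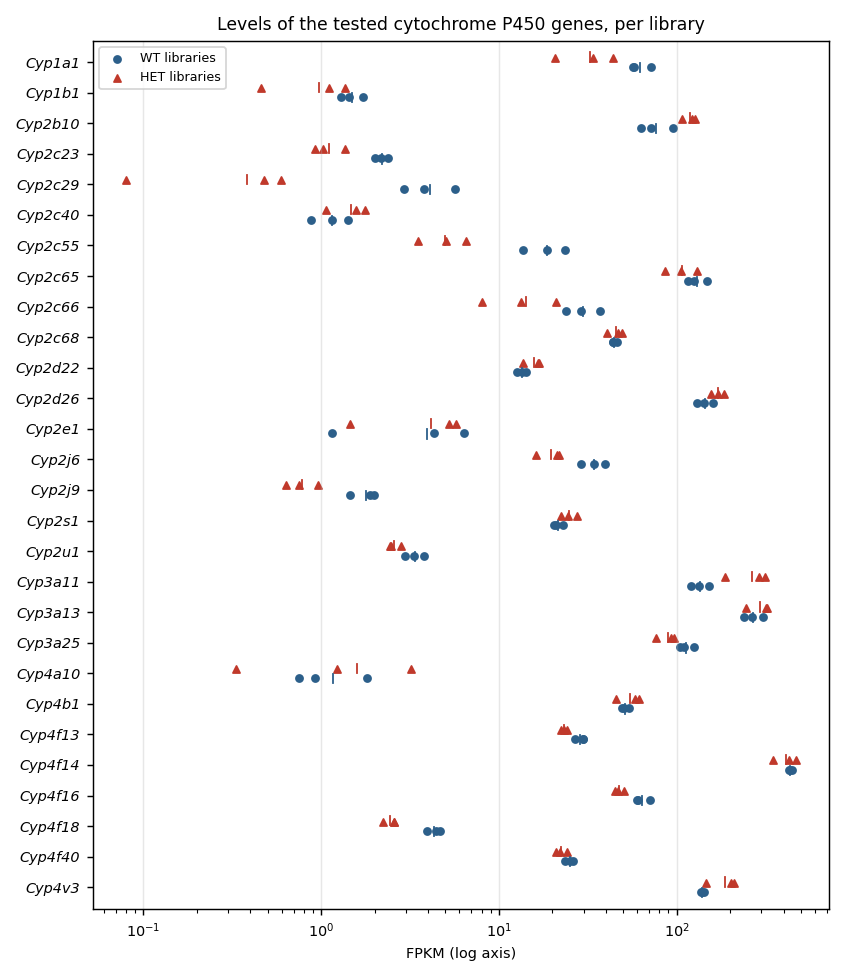
FPKM (log axis) of the 28 tested P450 genes, with blue points for the 3 WT libraries, red triangles for the 3 HET libraries and a short vertical line for each mean. Levels run from 0.0802 FPKM for Cyp2c29 in 1 HET library to 469 FPKM for Cyp4f14, and the genotypes are separate for Cyp2c29, Cyp2c55 and Cyp3a11.

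The levels spanned several orders of magnitude, and a few genes made up most of the family. A mean above 100 FPKM in at least 1 genotype was reached by 8 members: Cyp4f14, Cyp3a13, Cyp3a11, Cyp2d26, Cyp4v3, Cyp2c65, Cyp2b10 and Cyp3a25. Summed over the 32 members, the level was 1869.8, 2117 and 1927 FPKM in HET and 1834, 2016 and 1742 FPKM in WT. These sums overlapped (1971 ± 129 against 1864 ± 139), so the P450 total did not separate the genotypes, while the shares of some subfamilies did. Cyp3a genes held 33.0% ± 2.32 of it in HET and 27.8% ± 1.06 in WT, Cyp2b10 held 6.01% ± 0.271 against 4.09% ± 0.555, Cyp2c genes held 8.94% ± 2.06 against 12.3% ± 0.752, Cyp1a genes held 1.68% ± 0.651 against 3.33% ± 0.206, and Cyp2j genes held 1.04% ± 0.151 against 1.93% ± 0.160 (SD, n = 3). For each of these 5 subfamilies the shares of the genotypes did not overlap, and shares within a library do not depend on how libraries are scaled. The shares of Cyp2d genes (9.52% ± 0.468 in HET, 8.45% ± 0.227 in WT) and of Cyp2u1 did not overlap either. Cyp4f genes, at 25.9% ± 2.98 in HET and 30.1% ± 2.19 in WT, overlapped. So did the shares of the Cyp1b, Cyp2e, Cyp2s, Cyp4a, Cyp4b and Cyp4v genes. Shares of a common total are tied, so a larger share of some subfamilies lowers those of others. The summed FPKM of the Cyp2c and of the Cyp2d genes overlapped although their shares did not. The levels of 59.8% of all tested genes did not overlap, but levels of single genes are not shares. Separate shares are therefore not taken to set the subfamilies apart.

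**Figure D2:**
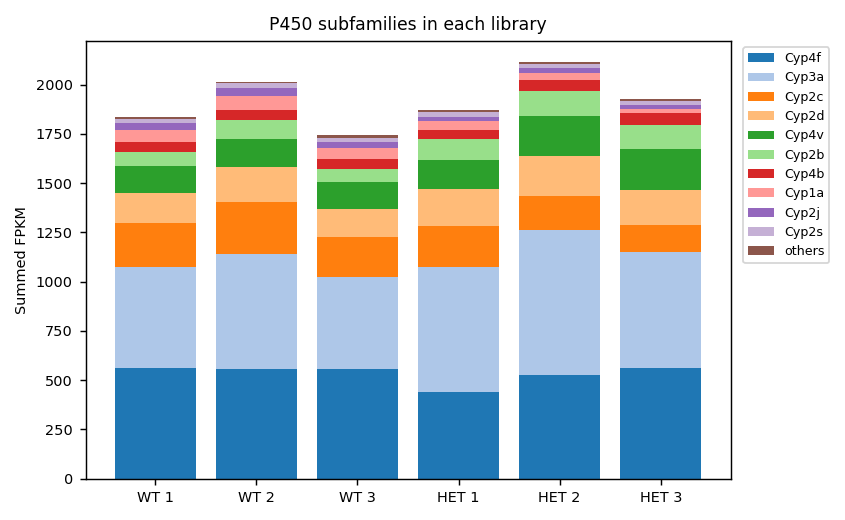
Stacked bars of summed FPKM for each P450 subfamily in each of the 3 WT and 3 HET libraries; subfamilies with small sums are stacked as others. Bar heights run from 1742 to 2117 FPKM and overlap between genotypes, and the Cyp3a segment is larger in the HET bars, at 584 to 735 FPKM against 467 to 583 FPKM in WT.

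Cyp1a1, the AhR-induced enzyme that oxidises polycyclic aromatic hydrocarbons, was the main family 1 gene. It was at 43.7, 33.7 and 20.7 FPKM in HET and at 57.6, 71.4 and 57.2 FPKM in WT. Every HET library lay below every WT library, and the 3 HET values differed among themselves by more than the 3 WT values. The mean was 32.7 ± 11.6 against 62.0 ± 8.07, a fold of 1.90, with a log2 fold change of -0.96 (SE 0.25, 95% confidence interval -1.55 to -0.37) and a limma adjusted p of 0.0186. Without WT replicate 2 the log2 fold change was -0.85 and the adjusted p was 0.0617. Cyp1b1, the AhR-inducible enzyme of tissues outside the liver, was at 0.459, 1.10 and 1.37 FPKM in HET and at 1.44, 1.30 and 1.72 FPKM in WT. These ranges overlapped and the difference did not pass (log2 fold change -0.36, SE 0.18, limma adjusted p 0.138), although without HET replicate 3 it did (adjusted p 0.0446). Summed fibroblast markers were at 18.6 to 28.7 FPKM in HET and 97.5 to 113 FPKM in WT, and their part in the Cyp1b1 values was not tested. Cyp1a2, chiefly a liver enzyme, was at or below 0.600 FPKM in every library and was not tested.

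Of the AhR pathway outside the P450 genes, Ahr itself did not pass (3.27 ± 0.609 FPKM in HET against 3.67 ± 0.247 in WT, log2 fold change -0.14, limma adjusted p 0.334), and its direction turned with quantile normalization. Its partner Arnt fell 1.38-fold (7.88 ± 0.651 against 10.8 ± 0.690, limma adjusted p 0.0047). Among 7 listed AhR targets 4 were tested, of which 1 was higher and 0 were lower, with a median log2 fold change of 0.36. The gene that rose was Nqo1, a quinone reductase that NRF2 also induces, at 40.8, 35.2 and 27.3 FPKM in HET and 18.0, 19.7 and 15.8 FPKM in WT (1.93-fold, limma adjusted p 0.00313). Ahrr, which encodes the AhR repressor and is itself an AhR target, was too low to be tested, at 0.256, 0.449 and 0.319 FPKM in HET and 0.793, 0.993 and 1.09 FPKM in WT. Thus Nqo1 was higher in all HET libraries, while Cyp1a1 and Ahrr were lower in all of them. The tested targets Tiparp, Ugt1a6a and Gsta1 overlapped between the genotypes and did not pass.

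Cyp2b10 is the classic CAR target of mouse. It was at 108, 126 and 121 FPKM in HET and at 71.9, 94.8 and 63.3 FPKM in WT. All HET values exceeded all WT values, and the means of 118 ± 9.48 and 76.7 ± 16.3 gave a fold of 1.55, a log2 fold change of 0.64 (SE 0.15, 95% confidence interval 0.29 to 0.99) and a limma adjusted p of 0.0116. The call held under all 18 alternative settings.

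The Cyp2c genes, several of which turn arachidonic acid into epoxy and hydroxy products, lie on chromosome 19 and were divided in their calls. Over all tested genes 35.7% were lower and 10.7% higher. Of 7 tested Cyp2c genes 4 fell, namely Cyp2c29, Cyp2c55, Cyp2c66 and Cyp2c23, and 3 did not pass, with 0 higher. The abundant Cyp2c65 and Cyp2c68 were among those that did not pass, so the summed subfamily level of 175 ± 34.7 FPKM in HET and 230.4 ± 31.4 FPKM in WT overlapped. In RefSeq order along chromosome 19 the first expressed genes of the subfamily were Cyp2c55, Cyp2c65, Cyp2c66 and Cyp2c29, and Cyp2c23 was the last.

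Cyp2c29, a CAR-inducible enzyme of mouse liver that also makes epoxides of arachidonic acid, was at 0.475, 0.597 and 0.0802 FPKM in HET and at 3.80, 5.63 and 2.91 FPKM in WT. All HET libraries were below 1 FPKM, HET replicate 3 being the lowest, and all WT libraries were well above it. The means of 0.384 ± 0.270 and 4.11 ± 1.39 gave a fold of 10.7, a log2 fold change of -1.87 (SE 0.22, 95% confidence interval -2.39 to -1.35) and a limma adjusted p of 0.000816. Its fold was 7.68 without HET replicate 3 and 14.8 without HET replicate 2. Cyp2c55, which hydroxylates arachidonic acid, was at 6.49, 5.02 and 3.50 FPKM in HET and at 18.8, 23.5 and 13.6 FPKM in WT. The highest HET library lay below the lowest WT library, and the 3.72-fold difference had a log2 fold change of -1.71 (SE 0.23, 95% confidence interval -2.26 to -1.16) and a limma adjusted p of 0.00147. Both calls held under every alternative setting that tested the gene.

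Cyp2c65 and Cyp2c66 are neighbours whose coding sequences are 96.3% identical. Cyp2c65 was at 129.9, 106 and 86.2 FPKM in HET and 125, 148 and 116 FPKM in WT, and did not pass (log2 fold change -0.28, 95% confidence interval -0.65 to 0.10, limma adjusted p 0.186); the adjusted p was 0.0446 with array weights and 0.0353 without HET replicate 1. Cyp2c66 was at 21.0, 13.3 and 8.06 FPKM in HET and 28.9, 37.0 and 23.9 FPKM in WT, 2.12-fold lower (log2 fold change -1.10, SE 0.31, limma adjusted p 0.0256). Every HET value of Cyp2c66 lay below every WT value, but the call was lost without HET replicate 2 (adjusted p 0.0652), WT replicate 1 (0.0695) or WT replicate 2 (0.0813). Within each library, Cyp2c66 per Cyp2c65 was 0.162, 0.125 and 0.0934 in HET and 0.231, 0.250 and 0.207 in WT, so the ratio was lower in every HET library; the difference between the 2 genes was not tested in another way. Fragments shared by such close copies may have been split between them, which makes the level of each uncertain. Cyp2c55 per Cyp2c65 was 0.0460 ± 0.00483 in HET and 0.142 ± 0.0214 in WT, also without overlap.

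Cyp2c23, the mouse counterpart of a rat renal epoxygenase, was at 1.36, 0.919 and 1.02 FPKM in HET and 2.18, 2.39 and 2.02 FPKM in WT. It fell 2.00-fold with a tighter spread in WT than in HET (log2 fold change -0.61, SE 0.09, limma adjusted p 0.00243). Of the 17 alternatives that tested it only quantile normalization lost the call (adjusted p 0.0567). Cyp2c68 was at 49.0, 46.9 and 40.6 FPKM in HET and 43.7, 46.3 and 43.7 FPKM in WT. Here the libraries of both genotypes were interleaved, and the confidence interval of the log2 difference ran from -0.16 to 0.21 (limma adjusted p 0.82). Cyp2c40 did not pass either, at 0.879 to 1.75 FPKM over all libraries (limma adjusted p 0.268, but 0.0215 and higher with quantile normalization). Its coding sequence is 97.9% identical to that of Cyp2c69, and that of Cyp2c68 is 97.2% identical to that of Cyp2c67, which lay at or below 0.570 FPKM.

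**Figure D3:**
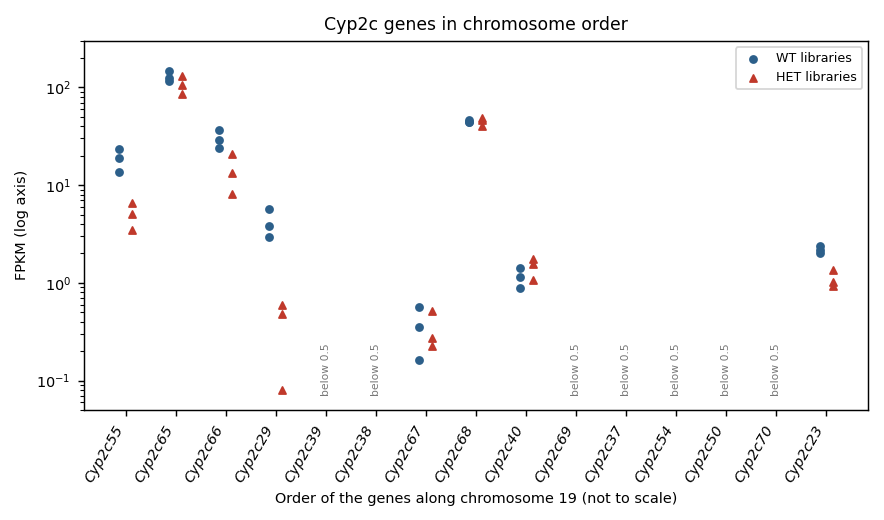
FPKM (log axis) of the Cyp2c genes in their order along chromosome 19, not to scale, with blue points for WT and red triangles for HET libraries; genes below 0.5 FPKM in all libraries are marked. Cyp2c55, Cyp2c66 and Cyp2c29 are separate between the genotypes, while Cyp2c65, which lies between Cyp2c55 and Cyp2c66, overlaps.

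The 2 expressed Cyp2j genes, neighbours on chromosome 4, both fell. Cyp2j6, a P450 of the small intestine, was at 21.1, 21.9 and 16.2 FPKM in HET and 34.1, 39.7 and 29.1 FPKM in WT. The genotypes were well apart, and the 1.74-fold difference had a log2 fold change of -0.77 (SE 0.14, 95% confidence interval -1.11 to -0.43) and a limma adjusted p of 0.00517 that held under all 18 alternatives. Cyp2j9, an arachidonic acid hydroxylase of mouse brain, was at 0.750, 0.963 and 0.637 FPKM in HET and 1.89, 1.99 and 1.46 FPKM in WT, 2.27-fold lower (limma adjusted p 0.00295; 0.0791 with quantile normalization). Cyp2j6 per Cyp2j9 was 28.2, 22.7 and 25.4 in HET and 18.0, 19.9 and 20.0 in WT. Cyp2j9 was below 1 FPKM in every HET library and passed the filter only through WT, which makes this ratio uncertain. The log2 fold change of Cyp2j9 was -0.64, beside -0.77 for Cyp2j6. Whether the 2 genes differed in proportion was not tested.

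Of the other 5 tested family 2 genes, 1 was lower, 0 were higher and 4 did not pass. Of these 4, 3 passed as higher under some alternatives. The shares over all tested genes were 35.7% lower and 10.7% higher. Cyp2d26 was the main Cyp2d gene, at 171, 186 and 157 FPKM in HET and 142, 161 and 129.6 FPKM in WT. The ranges overlapped slightly and the difference did not pass (log2 fold change 0.25, SE 0.10, limma adjusted p 0.0787), but it passed with median-ratio scaling (0.0159), with array weights (0.00991), with the replicate number as a block (0.0252) and without HET replicate 3 (adjusted p 0.0452) or WT replicate 2 (0.0459). Cyp2d22, regarded as a mouse counterpart of human CYP2D6, was at 15.7 ± 1.69 FPKM in HET against 13.5 ± 0.786 in WT and did not pass (limma adjusted p 0.106), though it passed as higher with median-ratio scaling (0.0232), quantile normalization (0.0425) and array weights (0.00631) and without HET replicate 1 (0.0116). Cyp2d10 was above 0.5 FPKM only in HET replicate 1 (1.14 FPKM), at 0.0921 and 0.494 FPKM in the other HET libraries and at or below 0.0997 FPKM in WT, and was not tested. Cyp2s1, a P450 of epithelia, was at 24.7 ± 2.58 FPKM in HET against 21.5 ± 1.29 in WT and did not pass (limma adjusted p 0.115), though it passed as higher with a common sum (0.0468), median-ratio scaling (0.0161), quantile normalization (0.0296) and array weights (0.0311) and without HET replicate 3 (0.0372).

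Cyp2u1, a fatty acid hydroxylase, was at 2.45, 2.46 and 2.82 FPKM in HET and 2.96, 3.34 and 3.77 FPKM in WT. It fell 1.30-fold (log2 fold change -0.28, limma adjusted p 0.0329), but 8 alternatives lost the call, among them leaving out HET replicate 1, HET replicate 2, WT replicate 2 or WT replicate 3 (adjusted p 0.0685, 0.096, 0.0839 and 0.102). Cyp2e1, the ethanol-inducible enzyme, varied more within each genotype than between them, at 1.44, 5.24 and 5.75 FPKM in HET and 4.33, 1.16 and 6.40 FPKM in WT. Its log2 fold change of 0.09 had a confidence interval from -1.18 to 1.37 (limma adjusted p 0.901), so neither a rise nor a fall of about 2-fold could be told from no change.

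In family 3 the neighbours Cyp3a11 and Cyp3a25 moved in opposite directions. Cyp3a11, the mouse counterpart of the human drug-metabolising CYP3A4 and a PXR target, was at 291, 315 and 188 FPKM in HET and 134, 153 and 121 FPKM in WT. The lowest HET library stood above the highest WT library. The means of 265 ± 67.7 and 136 ± 16.0 gave a fold of 1.95, a log2 fold change of 0.93 (SE 0.20, 95% confidence interval 0.46 to 1.39) and a limma adjusted p of 0.00847, which held under all 18 alternatives. Cyp3a25 was at 93.1, 97.2 and 76.7 FPKM in HET and 110.0, 125 and 104 FPKM in WT, 1.27-fold lower with a limma adjusted p of 0.037. Its call was lost without HET replicate 3 (adjusted p 0.061), WT replicate 1 (0.0848), WT replicate 2 (0.115) or WT replicate 3 (0.0549), and under 3 other scalings (0.0632 to 0.126). The ratio within a library does not depend on scaling: Cyp3a11 per Cyp3a25 was 3.13, 3.24 and 2.45 in HET and 1.21, 1.22 and 1.16 in WT.

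Cyp3a13, the other abundant gene of the subfamily, was at 247, 323 and 319.7 FPKM in HET and 265, 305 and 240.2 FPKM in WT. These values overlapped (log2 fold change 0.13, 95% confidence interval -0.18 to 0.45, limma adjusted p 0.447). In WT, Cyp3a11 per Cyp3a13 was 0.503 ± 0.00137, while in HET it was 1.18, 0.976 and 0.587, so that the HET libraries were both higher and far more spread. Summed enterocyte markers were 1.27-fold higher in HET, but 10 of the 12 genes did not pass. Fabp2 held the largest part of this sum (6794 ± 457 FPKM in HET, 4572 ± 287 in WT, limma adjusted p 0.00652). Lct, Mep1a and Krt20 had lower means in HET and did not pass. The 5 markers of the proximal small intestine summed to 3977 to 4342 FPKM in HET and 3248 to 3865 FPKM in WT. Most of this sum was Fabp1 (3977 ± 190 FPKM in HET, 3429 ± 333 in WT), which did not pass (limma adjusted p 0.153). Of 4 tested genes 1 was higher, Gata4. Lct, which did not pass, and the untested Cybrd1 lay below every WT library in every HET library. Slc40a1 was at 15.6 FPKM in HET replicate 1, above every WT library (3.62 to 4.14 FPKM). In HET replicates 2 and 3 Slc40a1 lay below every WT library. Distal markers summed to 3.70, 9.52 and 18.9 FPKM in HET and 18.4, 13.2 and 21.8 FPKM in WT, which overlap. Their part in the values of Cyp3a11 and Cyp2b10 was not tested. Cyp3a44 was at 0.509, 0.529 and 0.398 FPKM in HET and 1.22, 0.819 and 1.41 FPKM in WT, without overlap. It missed the filter, and with all genes at 0.5 FPKM in 1 library admitted it was lower (limma adjusted p 0.00832; 9.53% of 14065 genes were higher and 37.4% lower under that filter). Close copies affect this subfamily: Cyp3a11 and Cyp3a44 are 95.2% and 95.8% identical in coding sequence to Cyp3a41a, and Cyp3a25 is 97.5% identical to Cyp3a59, so the split of fragments between them is uncertain.

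**Figure D4:**
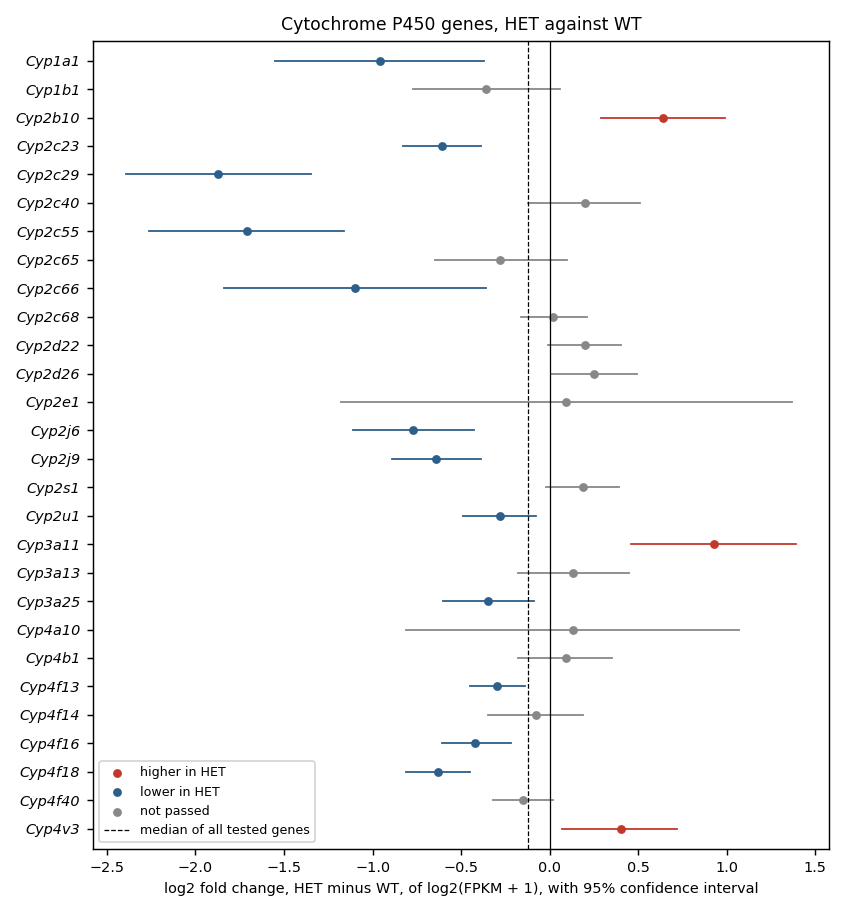
Log2 fold change, HET minus WT, of log2(FPKM + 1) for the 28 tested P450 genes with 95% confidence intervals; red marks genes higher in HET, blue genes lower and grey genes that did not pass, and the dashed line is the median of all tested genes (-0.12). Cyp2c29 (-1.87) and Cyp2c55 (-1.71) lie farthest to the left and Cyp3a11 (0.93) farthest to the right.

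Family 4 enzymes hydroxylate fatty acids at or near the end of the chain. Cyp4f14, which inactivates leukotriene B4 in mouse, was the most abundant P450 gene of all, at 348, 429 and 469 FPKM in HET and 448, 426 and 436 FPKM in WT. HET replicate 1 was the lowest and HET replicate 3 the highest of the 6, and the difference did not pass (log2 fold change -0.08, 95% confidence interval -0.35 to 0.19, limma adjusted p 0.571), with a direction that turned under median-ratio scaling. Of the 5 tested Cyp4f genes 3 fell and 0 rose, beside 35.7% lower and 10.7% higher over all tested genes. Cyp4f16 was at 46.8, 50.3 and 45.0 FPKM in HET and 60.4, 70.8 and 59.9 FPKM in WT (1.35-fold, log2 fold change -0.42, limma adjusted p 0.00651). Cyp4f13 was at 22.2, 24.1 and 23.3 FPKM in HET and 26.7, 29.9 and 29.7 FPKM in WT (1.24-fold, limma adjusted p 0.00986; 0.0548 with median-ratio scaling). In both genes the genotypes were apart, though by less than in the Cyp2c genes.

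Cyp4f18, the leukotriene B4 hydroxylase of mouse neutrophils, had the largest fold of the subfamily. It was at 2.22, 2.55 and 2.59 FPKM in HET and 4.65, 3.96 and 4.40 FPKM in WT, 1.77-fold lower (log2 fold change -0.63, SE 0.08, limma adjusted p 0.00092). The gap between the genotypes was wide beside the spread within each. Summed leukocyte markers were at 17.9, 23.2 and 23.9 FPKM in HET and 46.7, 46.8 and 47.6 FPKM in WT, with 3 of 4 tested genes lower. Their part in the Cyp4f18 values was not tested. Cyp4f40 did not pass, at 22.4 ± 1.59 FPKM in HET against 25.0 ± 1.33 in WT (limma adjusted p 0.12, but 0.0216 with array weights and 0.0452 without HET replicate 3).

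Cyp4v3, the mouse counterpart of the human fatty acid hydroxylase CYP4V2, was at 146, 202 and 211 FPKM in HET and 137, 143 and 139 FPKM in WT. HET replicate 1 was only just above the WT libraries, which were close together. The 1.33-fold rise (log2 fold change 0.40, SE 0.14) stood at the threshold with a limma adjusted p of 0.0491, and 11 of 18 alternatives lost it, including the omission of any library other than HET replicate 1 (adjusted p 0.0982 to 0.145). Cyp4b1, which activates several protoxins, was at 45.3, 58.0 and 61.0 FPKM in HET and 49.3, 53.7 and 50.4 FPKM in WT, with overlap (limma adjusted p 0.55, and 0.0242 without HET replicate 1). Cyp4a10, a PPAR-alpha target in mouse, was at 3.19, 1.23 and 0.332 FPKM in HET and 0.923, 1.81 and 0.751 FPKM in WT. HET replicates 1 and 3 were the highest and lowest of all 6 libraries, and the log2 fold change of 0.13 had a confidence interval from -0.81 to 1.07 (limma adjusted p 0.807).

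The spread between libraries was not the same in both genotypes. The median coefficient of variation of the 28 tested members was 15.4% in HET and 11.9% in WT, and it was larger in HET for 22 of them. Within WT, replicate 2 was the highest library for 23 members and replicate 3 the lowest for 18. Within HET, replicate 3 was the lowest for 15 and replicate 1 for 11. Members measured in the same libraries are not independent measurements of the genotype.

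P450 oxidoreductase, which passes electrons from NADPH to these enzymes, rose. Por was at 126, 133 and 109 FPKM in HET and 67.2, 77.2 and 62.0 FPKM in WT, a fold of 1.78 (log2 fold change 0.83, SE 0.11, limma adjusted p 0.00115) with no overlap. Over all tested genes 10.7% were higher and 35.7% lower, with a median log2 fold change of -0.12. Of 15 genes of electron donors and heme synthesis, 1 was higher, 2 were lower and 12 did not pass. Their median log2 fold change was 0.05. The lower genes act in heme synthesis: Uros fell 1.66-fold (3.96 ± 0.545 against 6.58 ± 1.06, limma adjusted p 0.00692) and Ppox 1.25-fold (limma adjusted p 0.0388), the latter losing its call without HET replicate 2 (0.0851), HET replicate 3 (0.089), WT replicate 1 (0.099) or WT replicate 2 (0.11). Alas1, the first enzyme of heme synthesis, was at 59.6 ± 10.7 FPKM in HET and 45.3 ± 6.29 in WT and did not pass (limma adjusted p 0.0648).

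Among the receptors known to act on P450 genes, those encoding PXR, CAR and PPAR-alpha rose. Nr1i2, which encodes PXR, was at 37.4, 41.8 and 40.1 FPKM in HET and 26.7, 27.8 and 27.8 FPKM in WT (1.45-fold, log2 fold change 0.52, limma adjusted p 0.000764). Nr1i3, which encodes CAR, was at 21.3, 20.9 and 16.7 FPKM in HET and 13.1, 15.6 and 11.8 FPKM in WT (1.45-fold, limma adjusted p 0.0148), with adjusted p of 0.0517, 0.052 and 0.0532 without HET replicate 2, WT replicate 1 and WT replicate 3. Ppara was at 3.89, 4.54 and 3.94 FPKM in HET and 2.43, 2.36 and 2.25 FPKM in WT (1.76-fold, limma adjusted p 0.000735). For all 3 receptors every HET library exceeded every WT library. All tested genes stood at 10.7% higher, 35.7% lower and a median log2 fold change of -0.12. Of 16 tested receptors and partner factors, 5 were higher, 3 were lower and 8 did not pass. Their median log2 fold change was 0.04. The others that rose were Nr1h4, the bile acid receptor (1.32-fold, limma adjusted p 0.0137, and 0.0514 without WT replicate 1), and Cebpb (1.30-fold, adjusted p 0.00652). Those that fell were Arnt, Ppard (25.8 ± 1.98 against 39.9 ± 1.98, 1.55-fold, adjusted p 0.000829) and the glucocorticoid receptor gene Nr3c1 (16.4 ± 0.920 against 20.9 ± 0.874, 1.28-fold, adjusted p 0.00503). Hnf4a, a general activator of liver and gut P450 genes, was at 166 ± 9.42 FPKM in HET against 167 ± 6.09 in WT (limma adjusted p 0.877), with a direction that changed with the scaling.

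**Figure D5:**
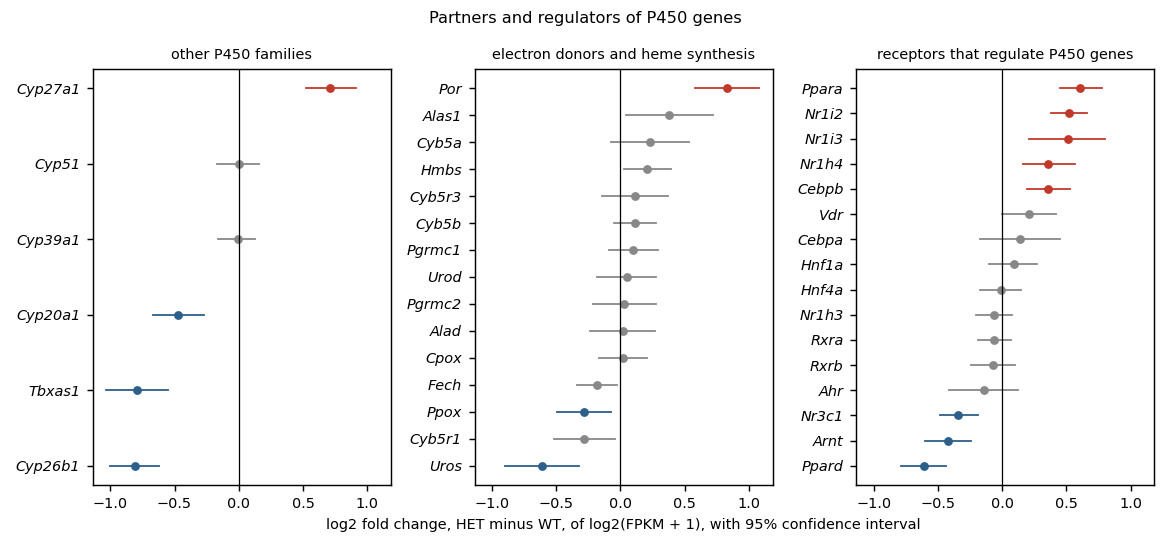
Log2 fold change, HET minus WT, of log2(FPKM + 1) with 95% confidence intervals for tested genes of other P450 families (left), of electron donors and heme synthesis (middle) and of receptors and factors that regulate P450 genes (right), coloured red where higher, blue where lower and grey where not passed. Por (0.83) is the farthest to the right of its panel, and Ppara (0.61), Nr1i2 (0.52) and Nr1i3 (0.51) lead the receptors.

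Targets of these receptors outside the P450 genes were not all changed in the same direction. Over all tested genes 10.7% were higher and 35.7% lower, with a median log2 fold change of -0.12. Of 11 PXR and CAR targets, 4 were higher, 1 was lower and 6 did not pass, with a median log2 fold change of 0.29. Besides Por, these were the efflux pump gene Abcb1a (73.1 ± 12.1 FPKM in HET against 41.6 ± 5.63 in WT, 1.76-fold, limma adjusted p 0.00452), the bilirubin-conjugating Ugt1a1 (160.1 ± 6.10 against 122 ± 14.0, 1.31-fold, adjusted p 0.011) and the transporter gene Abcc3 (1.49-fold, adjusted p 0.0437), whose call was lost without HET replicate 2 (0.0757), WT replicate 1 (0.109), WT replicate 2 (0.0805) or WT replicate 3 (0.123). The carboxylesterase gene Ces2a was at 45.7, 40.5 and 24.2 FPKM in HET and 86.9, 116 and 73.5 FPKM in WT, 2.50-fold lower (limma adjusted p 0.00593). Ces2a was thus below all WT libraries in every HET library, as Cyp2c29 and Cyp2c55 were, while Cyp3a11, Cyp2b10 and Abcb1a were above them.

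Of 12 PPAR-alpha targets 4 were higher, 0 were lower and 8 did not pass, with a median log2 fold change of 0.24. Angptl4, an inhibitor of lipoprotein lipase, was at 13.6 ± 0.647 FPKM in HET and 1.20 ± 0.0515 in WT (11.4-fold, limma adjusted p 1.4e-06), and Pdk4, which inhibits pyruvate dehydrogenase, was at 10.7 ± 3.31 and 1.14 ± 0.227 (9.33-fold, adjusted p 0.000212). Acot1 rose 2.35-fold (adjusted p 0.00993). Ehhadh rose 1.21-fold (adjusted p 0.0228; 0.0797, 0.0855 and 0.0834 without HET replicate 2, WT replicate 1 and WT replicate 3). Cyp4a10, the PPAR-alpha target among the P450 genes, was not among the called genes.

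Of the eicosanoid enzymes outside the P450 families 9 of 12 were tested, with 2 higher and 5 lower. Their median log2 fold change was -0.58, beside -0.12 over all tested genes, of which 10.7% were higher and 35.7% lower. Upstream of the P450 step, Pla2g4a, the phospholipase that releases arachidonic acid, was at 2.26, 2.41 and 2.69 FPKM in HET and 5.70, 5.55 and 6.27 FPKM in WT (2.38-fold lower, limma adjusted p 0.000182). On the prostaglandin branch, the cyclooxygenase gene Ptgs1 fell 2.17-fold (3.99 ± 0.733 against 8.67 ± 0.0606, adjusted p 0.000692) and the prostaglandin E synthase gene Ptges fell 4.54-fold (0.623 ± 0.216 against 2.83 ± 0.195, adjusted p 0.000281), while Hpgd, which inactivates prostaglandins, rose 2.20-fold (201 ± 27.3 against 91.3 ± 0.965, adjusted p 0.000281). For Ptges no HET library reached 1 FPKM, so it passed the filter only through the WT libraries. The lipoxygenase gene Alox5 fell 2.58-fold (0.852 ± 0.211 against 2.20 ± 0.310, adjusted p 0.00149). Downstream of the P450 epoxygenases, the soluble epoxide hydrolase gene Ephx2 rose 1.40-fold (263 ± 26.0 against 188 ± 16.8, adjusted p 0.00762) and the microsomal Ephx1 fell 1.57-fold (6.06 ± 0.590 against 9.52 ± 0.534, adjusted p 0.00146). Alox5, Ephx2 and Ephx1 were named after their values were seen. Leukocyte and fibroblast marker sums were lower in every HET library, and their part in the values of this list was not tested.

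Among P450 genes of other families, 6 of 21 were tested. Cyp27a1, the sterol 27-hydroxylase, rose 1.69-fold (21.6, 26.6 and 24.4 FPKM in HET against 14.1, 14.0 and 14.9 FPKM in WT, limma adjusted p 0.000746). The genes that fell were Cyp26b1, which degrades retinoic acid (0.365 ± 0.103 against 1.39 ± 0.116, 3.82-fold, adjusted p 0.000437), Tbxas1, the thromboxane synthase (0.715 ± 0.234 against 1.95 ± 0.0254, 2.73-fold, adjusted p 0.00115), and Cyp20a1 (1.54-fold, adjusted p 0.00425; 0.0548 with quantile normalization). Cyp26b1 and Tbxas1 passed the filter only through the WT libraries, since no HET library reached 1 FPKM for either. The median log2 fold change of the 6 was -0.24, beside -0.12 over all tested genes (10.7% higher and 35.7% lower).

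Scaling bears on how many members count as higher or lower. As deposited, 3 members were higher and 12 lower. With a common sum of FPKM, 3 were higher and 10 lower (14.6% and 29.6% of all genes). Among genes with a mean FPKM of at least 5, 2 members were higher and 7 lower (12.9% and 25.2% of the 7341 genes). With median-ratio scaling, which moved the log2 fold change of the median tested gene from -0.12 to 0.00, 6 were higher and 9 lower (23.0% and 25.1% of all genes), and with quantile normalization 5 were higher and 8 lower (24.7% and 18.1% of all genes). Cyp3a11 and Cyp2b10 were higher, and Cyp2c29, Cyp2c55, Cyp2j6, Cyp4f16 and Cyp4f18 lower, under every alternative that tested them, and 0 of the 15 called members changed sign.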

How the data were processed

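Per the labels' protocols, oligo(dT) beads were used to take up RNA of mouse intestine, and a SMARTER mRNA-seq kit to prepare the libraries. The values are FPKM as the authors deposited them, 1 column per library. The submitters' processing notes name the build GRCm39. Aligner, counting tool, annotation and use of strand: not given in the sources used here. Fragments of overlapping antisense genes and of close paralogs therefore cannot be told apart. Since FPKM is relative to library size, abundant genes that change shift the rest.

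The table held 25416 rows, 3380 of them unnamed loci, and 11 symbols that had been turned into dates were restored from their identifiers. All 75 P450 identifiers were found in GENCODE M21. No 2 libraries were identical (0 pairs). Depth was estimated from the value at which the lowest FPKM times transcript length pile up, a rough figure.

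A row was tested if 3 or more libraries reached 1 FPKM. The test was limma 3.58.1 (R 4.3.3) on log2(FPKM + 1), with eBayes and a trend, genotype as the only term, and Benjamini-Hochberg adjustment over all tested rows. The script was tested on simulated data. Alternatives were pseudocounts of 0.1 and 0.01, other filters (none, 0.5 FPKM in 1 library, mean FPKM of 5), other scalings (common sum, median ratio, quantile), a block for the replicate number, eBayes without trend or robust, array weights, and leaving out each library.

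Every member at 0.5 FPKM or more may be named, with values of every library for the called members of largest fold and for the leading member of each subfamily. Genes of the other lists were named where called, up to 4 a list, plus Ahr, Nr1i2, Nr1i3, Ppara, Hnf4a, Nr3c1 and Por. Others were named because 5 or fewer of a list were called in 1 direction. Named outside these rules, though not called, were Ahrr, Alas1, Tiparp, Ugt1a6a, Gsta1 and single marker genes such as Fabp1, Lct and Car1. The members and lists were chosen with earlier results of these data known. Coding identity is from the longest open reading frame of GENCODE M21 transcripts. Promoters are RefSeq's on GRCm38.p6, which is not the build of the values, and only these sequences carry coordinates. Other software was pandas 2.3.3, numpy 2.4.6, SciPy 1.17.1, Biopython 1.88 and matplotlib 3.10.9 under Python 3.11.15.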

Additional observations from a re-analysis of the deposited data

How the results depend on the processing

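Over the single genes named, 987 recomputed values kept their direction and side of the threshold, 57 lost a call, 21 gained one and 15 changed sign. The number of genes higher in HET, 1269 of 11870, was 2731 with median-ratio scaling, 2929 with quantile normalization and 2090 with array weights, and 754 to 1610 with 1 library left out. The number lower, 4235, was 1853 among genes with mean FPKM of at least 5 (fewer genes were tested) and 2153 with quantile normalization, and 3150 to 4409 with 1 library left out. Higher P450 genes numbered 6 with median-ratio scaling, 5 with quantile normalization, 6 with array weights and 2 to 5 with 1 library left out (5 without HET replicate 1), against 3. Lower P450 genes numbered 7 at mean FPKM of at least 5 and 8 to 13 with 1 library left out, against 12. The causes were not tested. With 1 library left out, the fit pools the spread of both genotypes.

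Sign changes touched uncalled genes. Cyp1b1 was 0.03 and Ahr 0.09 with quantile normalization. Cyp2c68 was -0.03 without HET replicate 1 (range -0.03 to 0.10 with 1 library left out). Cyp2e1 was -0.11, -0.17 and -0.42 without HET replicate 2, HET replicate 3 and WT replicate 2 (range -0.42 to 0.56). Cyp4a10 was -0.30 and -0.01 without HET replicate 1 and WT replicate 3 (range -0.30 to 0.53). Cyp4f14 was 0.05 with median-ratio scaling and 0.04 without HET replicate 1 (range -0.18 to 0.04). Hnf4a was 0.04 with a common sum, 0.12 with median-ratio scaling, 0.02 with array weights, 0.03 without HET replicate 1 and 0.01 without WT replicate 3 (range -0.05 to 0.03).

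With the replicate number as a block, 4 P450 genes were higher, the added gene being Cyp2d26 (adjusted p 0.0252), and 12 were lower, with 1167 and 3915 over all genes. Same-numbered libraries deviated from their genotype means with correlations of -0.029, 0.132 and 0.322, so the numbers are not taken to pair the libraries, and not every library correlated best with its own number. Depth limits the genes below 1 FPKM: Cyp2c29, Cyp2j9, Cyp26b1, Tbxas1 and Ptges in HET, and Cyp1a2, Cyp2c67, Cyp2d10 and Cyp3a44, which were not tested.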
